A study of Mus musculus with 6 samples.

Results

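The genes described here encode the subunits of the oxidative phosphorylation machinery in the sciatic nerve of the mouse, the large mixed nerve that supplies the hind leg. Members were found by name: symbols starting with Ndufa, Ndufb, Ndufc, Ndufs, Ndufv, Uqcr, Cox4 to Cox8 or Atp5, and the genes Sdha to Sdhd, with at least 10 raw counts in at least 3 libraries. Of the 24421 genes in each file 92 carried such a name, and 90 met the count minimum. Cox7b2 (0 or 1 count per library) and Cox8c (0 counts in all) did not. Of the 90 genes, 80 encode subunits and 10 share only the name: 7 complex I assembly factors of the Ndufaf series, the supercomplex assembly factor Cox7a2l, and Atp5s and Atp5sl. The subunits were read as 74 general subunits and 6 tissue isoforms of complex IV.

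The study compared 3 libraries of whole sciatic nerve labelled as a double conditional knockout of YAP and TAZ (cKO) with 3 labelled wild-type (WT), and the series' design counts 3 mice in each group. YAP and TAZ, encoded by Yap1 and Wwtr1, are co-activators of transcription at the end of the Hippo pathway. The sources used here do not give the Cre driver, deleted exons, age, sex or whether nerves were pooled, and no agent or allele shared by both groups is named. Every library held counts of both Xist (5217 to 11923) and the Y-linked Ddx3y (296 to 1903), so transcripts of both sexes are present in each, which goes against 1 mouse per library.

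Oxidative phosphorylation takes place in the inner mitochondrial membrane. Complexes I and II pass electrons from NADH and succinate to ubiquinone, complex III passes them on to cytochrome c, complex IV reduces oxygen with them, and complex V uses the resulting proton gradient to make ATP. Complexes I, III, IV and V contain subunits encoded in the mitochondrial genome, and none of these is among the genes in the files. Several complex IV subunits exist as a general form and as a tissue form. Cox6a2, Cox7a1 and Cox8b are the forms of heart and skeletal muscle, and Cox7a1 and Cox8b are also known from brown fat.

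Gene counts per library ran from 24651262 to 47044158, and every WT library was deeper than every cKO library. Yap1 had 107 ± 3.41 CPM (counts scaled to library size with TMM factors, mean ± SD, n = 3) in cKO and 122 ± 1.69 in WT, with a log2 fold change of −0.20 ± 0.08 (SE) and an adjusted p of 0.145 in edgeR's quasi-likelihood test. Wwtr1 had 359 ± 18.7 CPM in cKO and 271 ± 15.6 in WT and was called higher (log2 fold change 0.40 ± 0.09, edgeR adjusted p = 0.0208). That call was lost without cKO 3, WT 1 or WT 2 (edgeR adjusted p from 0.038 to 0.117 over the 6 libraries left out). Neither transcript was thus called lower, in counts of whole genes that do not separate reads of a deleted exon. Of 12 Schwann cell markers 6 were called lower, among them Mbp, Pmp22, Prx, Mag and Egr2, beside 6.17% of all genes tested. In bulk nerve, fewer cells of a type and less RNA per cell cannot be told apart.

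Few genes of the respiratory chain changed by the test, and those that changed most were muscle forms. Cox6a2 and Cox8b were 4.90 and 4.81 times as high in cKO as in WT nerve, the third muscle form Cox7a1 was 2.31 times as high without passing the threshold, and 1 general subunit, Ndufb7 of complex I, rose 1.31-fold. At an adjusted p under 0.05, 3 of 90 members were higher and 0 were lower, where 4.77% of all 14789 genes tested were higher and 6.17% lower (10.9% in either direction). No member below 0 had an unadjusted p under 0.05, and neither DESeq2 nor limma-voom called a member lower (8.50% and 6.16% of all genes were). Of the 25 members above 0 with an unadjusted p under 0.05, 22 did not pass the adjustment; over all genes 12.1% were higher at that level.

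**Figure D1:**
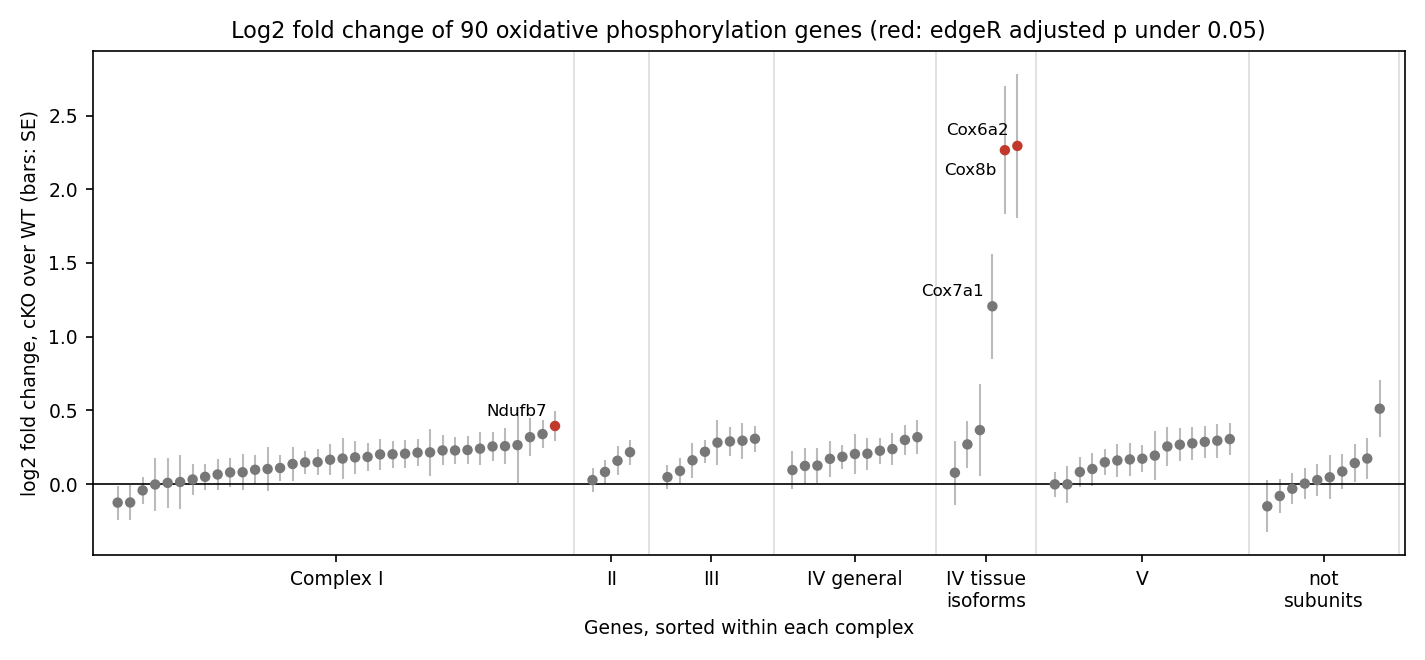
Log2 fold change (cKO over WT, y axis, bars are SE) of the 90 members, sorted within each complex along the x axis. The 2 called muscle forms stand near 2.3 and Cox7a1 at 1.21, while general subunits run from −0.13 to 0.39.

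The muscle forms of complex IV were the members that differed most. Cox6a2 (chromosome 7, 128205435 to 128206387, minus strand, GRCm38) had 38.0, 62.3 and 34.3 CPM in cKO 1, 2 and 3 and 14.1, 2.675 and 10.5 CPM in WT 1, 2 and 3. All cKO libraries lay above all WT libraries, with cKO 2 the highest and WT 2 the lowest of the 6. The log2 fold change was 2.29 ± 0.49 (4.90-fold, edgeR adjusted p = 0.0181).

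Cox8b, the muscle form of subunit VIII, lies on chromosome 7 (140898945 to 140900446, minus strand). It had 23.0, 37.6 and 20.1 CPM in cKO 1, 2 and 3 and 7.66, 2.025 and 7.03 CPM in WT 1, 2 and 3. The groups did not overlap, and the order of the libraries at both ends was that of Cox6a2: cKO 2 highest, WT 2 lowest. On the log2 scale the difference was 2.27 ± 0.44 (4.81-fold, edgeR adjusted p = 0.0118).

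Cox7a1, the muscle form of subunit VIIa (chromosome 7, 30184144 to 30186078, plus strand), had 11.5, 26.1 and 14.8 CPM in cKO 1, 2 and 3 and 7.49, 4.525 and 10.6 CPM in WT 1, 2 and 3. The lowest cKO library stood just above the highest WT library, and cKO 2 and WT 2 were again the extremes. The log2 fold change of 1.21 ± 0.36 missed the threshold (edgeR adjusted p = 0.0662), though DESeq2 called it (adjusted p = 0.00454; 0.00454 to 0.839 over 16 alternatives).

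The call of Cox8b held without any 1 library (edgeR adjusted p from 0.00603 to 0.0411). That of Cox6a2 was lost without cKO 2 (log2 fold change 1.98, edgeR adjusted p = 0.0619) or without cKO 3 (2.45, edgeR adjusted p = 0.0507), with a range of 0.00638 to 0.0619 over the 6 libraries left out. Exons of Cox6a2 overlap those of Itgad on the other strand over 70 bp, and the sources used here do not give the strand setting of the counting.

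Each muscle form has a general counterpart, and these did not pass the test. Cox6a1 had 308, 234 and 233 CPM in cKO 1, 2 and 3 and 227, 233 and 252 CPM in WT 1, 2 and 3. The groups overlapped, and cKO 1 alone stood apart (log2 fold change 0.12 ± 0.12, edgeR adjusted p = 0.605). Cox8a behaved alike, with 427, 325 and 297 CPM in cKO against 294, 305 and 312 CPM in WT (0.20 ± 0.13, edgeR adjusted p = 0.399). Cox7a2 had 213, 172 and 184 CPM in cKO and 142, 157 and 165 CPM in WT, which did not overlap (0.30 ± 0.11, edgeR adjusted p = 0.113).

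As a share of the counts of each pair, Cox6a2 made up 11.0%, 21.0% and 12.8% of Cox6a1 plus Cox6a2 in cKO 1, 2 and 3 and 5.85%, 1.14% and 4.02% in WT 1, 2 and 3. The cKO libraries were all above the WT ones (exact permutation test, two-sided, p = 0.1, the lowest possible with 3 libraries in each group). Per transcript length the means were 12.9% ± 4.72 in cKO and 3.10% ± 2.02 in WT (SD, n = 3). Cox8b made up 5.12%, 10.4% and 6.34% of its pair in cKO and 2.54%, 0.66% and 2.20% in WT, also without overlap (exact permutation p = 0.1; per transcript length 10.7% ± 3.86 and 2.72% ± 1.51). For Cox7a1 the shares were 5.10%, 13.2% and 7.45% in cKO and 5.01%, 2.81% and 6.07% in WT, which overlapped (exact permutation p = 0.2; per transcript length 13.5% ± 6.15 and 7.51% ± 2.63). The general form thus remained the larger part of each of these pairs in all 6 libraries.

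**Figure D2:**
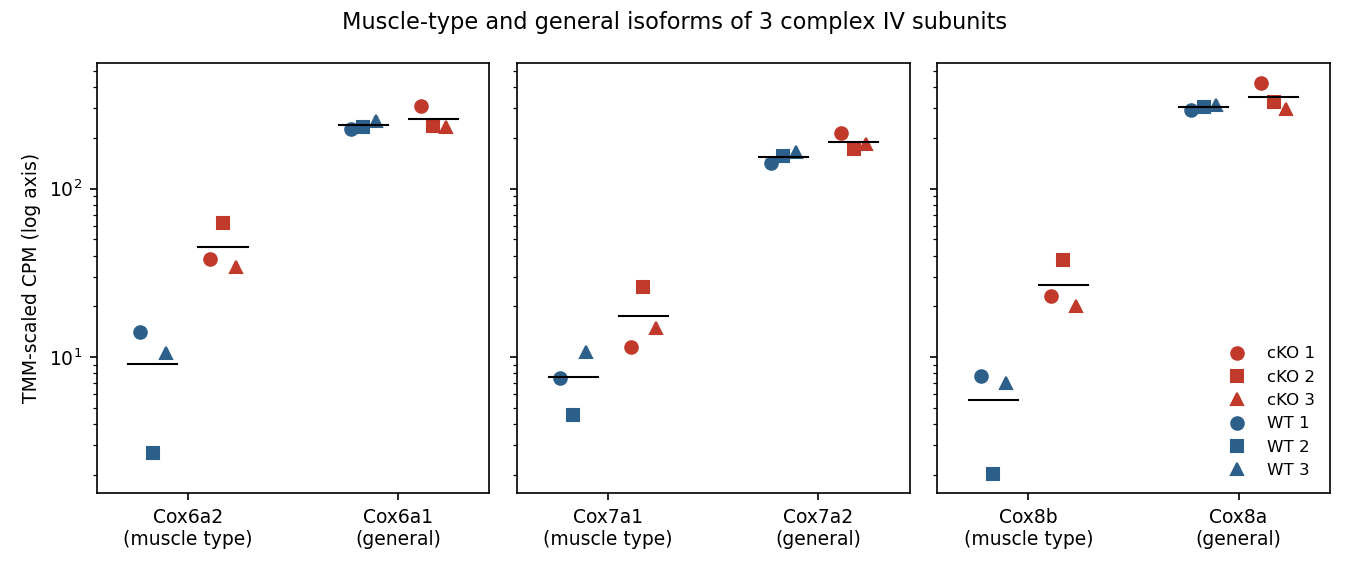
TMM-scaled CPM (log axis) of the muscle-type and general forms of 3 complex IV subunits; each symbol is 1 library and the black bars are group means of 3. Cox6a2 and Cox8b lie higher in all cKO libraries (34.3 to 62.3 and 20.1 to 37.6 CPM) than in WT (up to 14.1 and 7.66 CPM), while Cox6a1 and Cox8a overlap.

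The other tissue forms of complex IV did not pass the test. Cox4i2, a form known to respond to oxygen, had 1.71 to 2.71 CPM in cKO and 1.375 to 2.17 in WT (log2 fold change 0.37 ± 0.31, edgeR adjusted p = 0.535). Ndufa4l2, another gene known to respond to low oxygen, had 11.8 to 14.6 CPM in cKO and 9.60 to 12.7 in WT (0.27 ± 0.16, edgeR adjusted p = 0.344). Cox6b2, a testis form, had 5.73 to 10.4 CPM in cKO and 7.46 to 7.75 in WT (0.08 ± 0.22, edgeR adjusted p = 0.886). Both groups overlapped for all 3 genes. Their shares of the counts with Cox4i1, Ndufa4 and Cox6b1 overlapped too, at 0.496% ± 0.0775 in cKO against 0.419% ± 0.0586 in WT for Cox4i2 (exact permutation p = 0.2), 5.42% ± 0.176 against 5.21% ± 0.694 for Ndufa4l2 (exact permutation p = 0.9) and 2.92% ± 0.622 against 3.29% ± 0.28 for Cox6b2 (exact permutation p = 0.5; SD, n = 3 each).

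Other skeletal muscle genes differed in the same direction as the muscle forms. Of 28 skeletal muscle markers, such as the actin Acta1 and the titin gene Ttn, 24 were called higher and 0 lower (15 higher without cKO 3). Over all genes tested 4.77% were called higher and 6.17% lower (1.83% higher without cKO 3). The median log2 fold change of the markers was 2.28 beside 0.02 for all genes tested. At an unadjusted p under 0.05 none was lower, since all 28 were above 0. Their summed level was 5689, 12300 and 7537 CPM in cKO 1, 2 and 3 and 2218, 628 and 2148 CPM in WT 1, 2 and 3. cKO 2 was thus the highest and WT 2 the lowest library, as for Cox6a2, Cox8b and Cox7a1.

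Set against that sum, Cox6a2 came to 0.667%, 0.507% and 0.455% of the marker CPM in cKO and 0.636%, 0.426% and 0.490% in WT. The groups overlapped (means 0.543% and 0.517%, exact permutation p = 0.7). Cox8b came to 0.405%, 0.306% and 0.267% in cKO and 0.345%, 0.322% and 0.327% in WT, which overlapped as well (exact permutation p = 0.9). Cox7a1 differed from both: its 0.201%, 0.212% and 0.196% in cKO lay below its 0.338%, 0.720% and 0.495% in WT (exact permutation p = 0.1, the smallest possible). This ratio was chosen after the values were seen.

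With the mean log2 CPM of the muscle markers as a covariate in edgeR, 0 of 90 members were called, and 53 genes were called of all those tested (5 higher, 0.0338%, and 48 lower, 0.325%), all 53 also called in the same direction without it. The log2 fold change was then −0.09 ± 0.40 for Cox6a2, 0.17 ± 0.40 for Cox8b and −0.45 ± 0.46 for Cox7a1. Muscle level and genotype cannot be told apart in this design: the marker mean was 5.996 to 7.04 in cKO and 2.95 to 4.78 in WT, with no overlap.

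**Figure D3:**
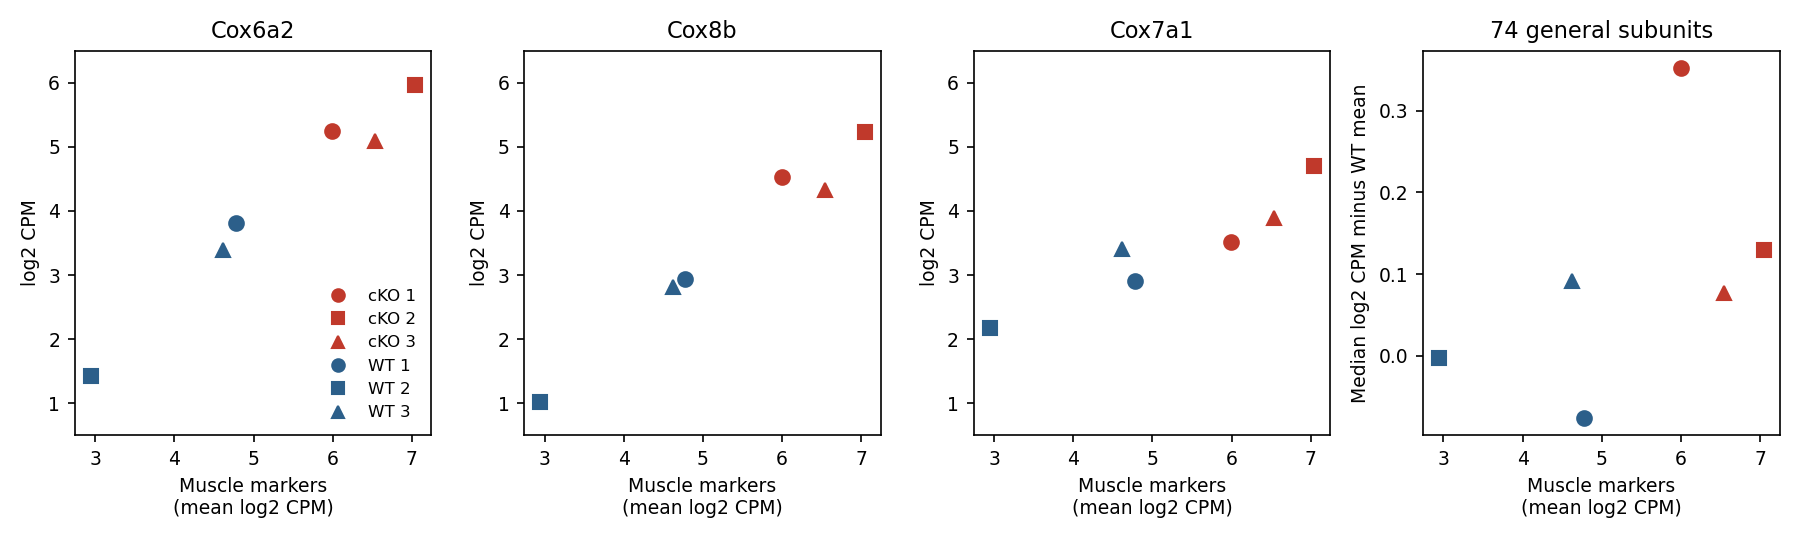
log2 CPM of the 3 muscle forms, and the median deviation of the 74 general subunits from their WT mean (y axes), against the mean log2 CPM of the skeletal muscle markers (x axes), 1 symbol per library. The muscle forms run from WT 2 at the lower left to cKO 2 at the upper right, while the general subunits are highest in cKO 1.

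Brown fat, where Cox7a1 and Cox8b are also known to be expressed, has the defining gene Ucp1, which had 8, 55 and 41 raw counts in cKO 1, 2 and 3 and 3, 0 and 3 in WT 1, 2 and 3, too few to be tested. Of 6 brown fat markers tested 3 were called higher and 0 lower, beside 4.77% and 6.17% of all genes tested. Otop1 had 4.28, 4.91 and 6.22 CPM in cKO 1, 2 and 3 and 0.0866 to 0.2 in WT (log2 fold change 5.29 ± 0.38, edgeR adjusted p = 0.000192). That difference was larger than that of any skeletal muscle marker tested. Otop1 did not follow Ucp1 over the libraries, since cKO 1 stood near cKO 2 for Otop1 but far below it for Ucp1. Cidea had 0.905 to 1.91 CPM in cKO and 0.025 to 0.202 in WT (3.19 ± 0.64, edgeR adjusted p = 0.0137; lost without cKO 2, 0.053). Ppargc1a, also expressed in muscle, was called higher, but in only 1 of 6 fits with a library left out (edgeR adjusted p up to 0.137). Dio2 (0.781 ± 0.348, edgeR adjusted p = 0.207), Ppara (−0.024 ± 0.255, edgeR adjusted p = 0.972) and Prdm16 (−0.20 ± 0.12, edgeR adjusted p = 0.358) were not called. The 6 markers summed to 54.5 to 64.4 CPM in cKO and 50.6 to 61.5 CPM in WT, and most of that sum was Prdm16, at 38.8 ± 4.37 CPM in cKO and 44.5 ± 5.03 in WT (SD, n = 3). Of the other listed markers Elovl3, Zic1 and Lhx8 had at most 7 counts in any library, and Lhx8 was at 0 in all but cKO 2. The part of brown fat in the levels of Cox7a1 and Cox8b was not tested.

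White fat differed most between the WT libraries. The 12 white and shared fat markers summed to 553.5, 638 and 768 CPM in cKO 1, 2 and 3 and 225, 234 and 832 CPM in WT 1, 2 and 3, so that WT 3 was the highest library of the 6. By edgeR and by DESeq2 0 of 12 were called in either direction, and by edgeR 0 had an unadjusted p under 0.05. Without WT 3, 9 of 11 were called higher and 0 lower, beside 7.19% and 7.5% of all genes tested.

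The stretches upstream of the starts of Cox7a1 and Cox8b are shown beside that of Cox6a1, a general form with a different motif content. Cox6a1 is not the counterpart of Cox7a1 or Cox8b, and the stretches of their counterparts Cox7a2 and Cox8a are not shown. The printed stretches are RefSeq promoter entries of GRCm38.p6, 5′ to 3′ on the gene's strand. Each is the longest stretch outside annotated exons within 250 bases upstream of the start. They lie at chr7:30183921-30184143 (plus strand), chr7:140900447-140900696 (minus strand) and chr5:115348982-115349129 (minus strand). Capitals mark matches, on either strand, to the E-box CANNTG bound by muscle regulators such as MyoD, to a MEF2-like motif of CTA and TAG with any 4 bases between them, to an NRF-1-like motif of GCGCA and GCGC with any 1 base between them, or to a GABP-like motif CCGGAAG.
Cox7a1: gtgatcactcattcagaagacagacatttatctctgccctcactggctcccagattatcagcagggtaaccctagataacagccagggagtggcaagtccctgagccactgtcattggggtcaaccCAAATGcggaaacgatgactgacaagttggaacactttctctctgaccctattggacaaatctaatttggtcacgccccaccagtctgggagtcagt
Cox8b: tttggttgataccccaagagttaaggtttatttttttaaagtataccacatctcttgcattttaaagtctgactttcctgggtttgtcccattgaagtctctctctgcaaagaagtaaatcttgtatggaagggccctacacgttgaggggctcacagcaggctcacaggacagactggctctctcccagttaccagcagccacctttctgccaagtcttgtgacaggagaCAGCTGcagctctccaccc
Cox6a1: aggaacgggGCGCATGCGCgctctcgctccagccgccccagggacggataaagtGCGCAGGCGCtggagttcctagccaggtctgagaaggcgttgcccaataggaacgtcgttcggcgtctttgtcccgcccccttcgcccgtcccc

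Cox7a1 and Cox8b each held 1 E-box and no match to the other motifs within 250 bases. Cox6a1 held 2 NRF-1-like matches, shown above, and 1 GABP-like match that does not lie wholly within the printed stretch. NRF-1 and GABP are factors known to act on many respiratory chain genes. An entry was found for 73 of the 90 members and 62 of the 74 general subunits. The NRF-1-like motif was present in 21.0% of those 62 general subunits and in 4.23% of 27025 genes, and the GABP-like motif in 19.4% and 7.83%. The E-box was present in 61.3% and 69.3%, and the MEF2-like motif in 1.61% and 3.70%. A match is a description of the letters only.

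The general subunits differed little and mostly in 1 direction. Of 74, 68 had a log2 fold change above 0 (53.7% of all genes tested did), with a median of 0.18 and a range from −0.13 for Ndufs4 to 0.39 for Ndufb7. In 23 of them all cKO libraries lay above all WT libraries and in 0 below, where 15.3% of all genes lay above and 15.8% below. Over all 90 members the counts were 81 above 0 and 27 non-overlapping and higher. The number called among the 74 was 1. In simulated counts of this design, 14486 of 14682 genes tested had no true change. There 7 of 48 genes with a true log2 change of 0.5 were called, and 0 of 50 with one of 0.25. Far fewer genes changed there than the 10.9% called in the data, so the adjustment was harsher. The median SE was 0.106 for general subunits and 0.142 for all genes tested. The simulated rates thus do not give the rate at which such changes in these members would be called.

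Complex I, the largest, takes electrons from NADH through a set of core subunits and carries many accessory subunits around them. Its 36 general subunits had a median log2 fold change of 0.17, with 32 above 0. The accessory subunit Ndufb7 (chromosome 8, 83566671 to 83571626, plus strand) had 118, 104 and 98.6 CPM in cKO 1, 2 and 3 and 80.9, 75.2 and 87.5 CPM in WT 1, 2 and 3. All cKO libraries were above all WT libraries, with cKO 1 highest. The difference of 0.39 ± 0.10 on the log2 scale passed (edgeR adjusted p = 0.0346), and the call held in 1 of 6 fits with a library left out, the one without WT 3 (edgeR adjusted p from 0.0305 to 0.144). The accessory subunit Ndufa8, named after its values were seen, had 105, 93.0 and 84.6 CPM in cKO and 71.1, 76.6 and 75.5 CPM in WT (0.34 ± 0.10, edgeR adjusted p = 0.057). Those groups did not overlap either.

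The 7 nuclear core subunits, which hold the flavin and iron-sulfur clusters, had a median log2 fold change of 0.08 and the 29 accessory subunits one of 0.18. All cKO libraries were above all WT libraries in 0 of the 7 and 9 of the 29, beside 15.3% of all genes; the difference between core and accessory subunits was not tested. Ndufs7 had the largest core value, with 74.9, 82.2 and 67.2 CPM in cKO and 61.9, 61.1 and 68.1 CPM in WT (0.23 ± 0.10, edgeR adjusted p = 0.185). Ndufv2 had the smallest, with 251, 221 and 227 CPM in cKO and 223, 246 and 252 CPM in WT (−0.04 ± 0.09). Ndufs1, Ndufs3, Ndufs8 and Ndufv1 lay between 0.065 and 0.149. At the lower end of the complex the accessory subunit Ndufs4 had 107, 85.7 and 86.3 CPM in cKO and 89.8, 106 and 109 CPM in WT (−0.13 ± 0.12, edgeR adjusted p = 0.572), with overlap.

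Ndufs5 stood apart by its level rather than its difference. Per kilobase of transcript it had 4.46 ± 1.32 CPM in WT (SD, n = 3) and 5.36 in cKO, while the next lowest general subunit, Ndufb2, had 13.9 in WT, the median of 73 general subunits was 144 and the highest, Atp5e, had 556. The cause was not tested. Many respiratory chain genes have processed copies in the genome, and reads that fit a gene and such a copy could be lost or split in the counting.

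Complex II, succinate dehydrogenase, is the only complex with no mitochondrially encoded subunit and also works in the citric acid cycle. All 4 subunits were above 0 and the median log2 fold change was 0.12. The iron-sulfur subunit Sdhb had 171, 155 and 150 CPM in cKO 1, 2 and 3 and 138, 132 and 140 CPM in WT 1, 2 and 3, with no overlap (0.22 ± 0.09, edgeR adjusted p = 0.15). The membrane anchor Sdhd had 133, 121 and 123 CPM in cKO and 122, 130 and 118 CPM in WT, with overlap (0.03 ± 0.08). The flavoprotein Sdha had 0.08 ± 0.08 and the other anchor Sdhc 0.16 ± 0.10 on the log2 scale.

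Complex III had a median log2 fold change of 0.25 over the 8 subunits that the name rule takes in. Its subunit Cyc1 (cytochrome c1) is left out by name and counted with the electron carriers below (0.22 ± 0.10, edgeR adjusted p = 0.216). All 8 were above 0 and 4 were higher without overlap, where 53.7% and 15.3% of all genes were. The small subunit Uqcrb had 145, 131 and 140 CPM in cKO and 106, 108 and 123 CPM in WT. Each cKO library was above each WT library, and the log2 fold change was 0.31 ± 0.09 (edgeR adjusted p = 0.0637). The large structural subunit Uqcrc1 was also apart between the groups (0.22 ± 0.08, edgeR adjusted p = 0.121), while its partner Uqcrc2 was not (0.05 ± 0.08). Uqcrfs1, the Rieske iron-sulfur protein, had 134, 125 and 112 CPM in cKO and 112, 119 and 118 CPM in WT, with overlap (0.09 ± 0.09).

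The 11 general subunits of complex IV had a median log2 fold change of 0.20, all above 0, from 0.10 for Cox7c to 0.32 for Cox7b, and 5 were higher without overlap (15.3% of all genes were). Cox5a and Cox5b, which bind the catalytic core, had 130 to 147 and 215 to 248 CPM in cKO and 119 to 123 and 188 to 200 CPM in WT. Neither pair of groups overlapped (0.19 ± 0.08 and 0.23 ± 0.09; edgeR adjusted p = 0.201 and 0.153). Cox4i1, the general form of the largest nuclear subunit, had 491, 419 and 388 CPM in cKO and 376, 368 and 445 CPM in WT, with overlap through WT 3 (0.13 ± 0.12).

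Complex V had a median log2 fold change of 0.17 over 15 subunits, with 13 above 0. Its catalytic head subunits Atp5a1 and Atp5b had 260 and 505 CPM per kilobase in WT, above the median general subunit. Atp5a1 had 706, 739 and 687 CPM in cKO and 669, 645 and 610 CPM in WT, without overlap (0.15 ± 0.09, edgeR adjusted p = 0.356). Atp5b overlapped, with 1028, 1079 and 964 CPM in cKO and 1019, 1016 and 866 CPM in WT (0.08 ± 0.10). The genes Atp5g1, Atp5g2 and Atp5g3, which encode the same c subunit of the rotor, had log2 fold changes of 0.26, 0.17 and 0.16, all with overlap. In the peripheral stalk Atp5o was highest (0.31 ± 0.11, edgeR adjusted p = 0.115), while Atp5h and Atp5f1 were both at −0.002.

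The 10 members that are not subunits had a median log2 fold change of 0.04, with 7 above 0, 0 called and 1 higher without overlap, no more than the 15.3% of all genes. That gene, the assembly factor Ndufaf6, had 5.297 to 6.66 CPM in cKO and 3.65 to 4.59 in WT (0.51 ± 0.19, edgeR adjusted p = 0.134). At the other end Atp5s had 6.93 to 8.89 CPM in cKO and 7.64 to 10.3 in WT (−0.15 ± 0.18).

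The difference in the general subunits was uneven over the libraries. The median deviation from the WT mean of each gene, on the log2 scale, was 0.35 in cKO 1, 0.13 in cKO 2 and 0.08 in cKO 3, and −0.08, 0.00 and 0.09 in WT 1, 2 and 3. cKO 1 stood highest in each complex. Over all general subunits WT 3 was above cKO 3, as in complexes I and V, while in complexes II, III and IV cKO 3 was the higher of the pair. The summed level of the 74 genes was 14790, 12910 and 12470 CPM in cKO and 11560, 11930 and 12560 CPM in WT, so that the sums overlapped. Without cKO 1 the median log2 fold change of the general subunits was 0.10, with 58 of 74 above 0 (53.4% of all genes), and without WT 1 it was 0.11 with 60 (50.6%). Without WT 3 the number of members called higher was 8, beside 7.19% of all genes: the 3 above with Cox7a1, Cox7b, Ndufa5, Uqcrb and Atp5o.

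Transcript length moved with this pattern. General subunits have short transcripts, with a median of 865 bp against 2977 bp for all genes tested, and 75.3% of them are at most 1500 bp long against 15.9% of all genes. Among 457 other genes of at most 800 bp the median deviation was 0.34 in cKO 1, −0.03 in cKO 2 and 0.05 in cKO 3, and −0.10, −0.01 and 0.11 in WT 1, 2 and 3. In 1773 genes over 6000 bp it was −0.19 in cKO 1 and −0.04 in WT 3. cKO 1 thus carried more counts on short transcripts in general. Among the general subunits the median log2 fold change was 0.19 for the 34 of at most 800 bp, 0.22 for the 21 up to 1500 bp and 0.09 for the 18 longer ones. Among other genes it was 0.12 at up to 800 bp and 0.09 from there to 1500 bp. In longer bins it fell from 0.05 (1500 to 2500 bp) to −0.05 (over 6000 bp).

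**Figure D4:**
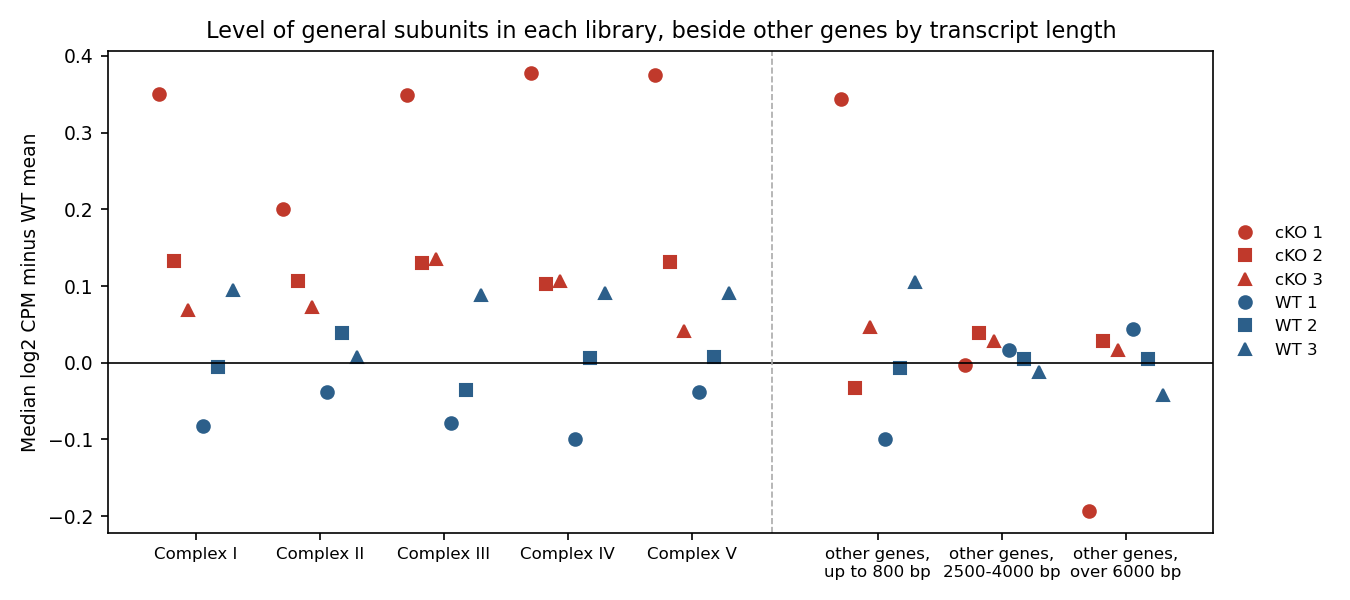
Median log2 CPM minus the WT mean (y axis) of the general subunits of each complex and, right of the dashed line, of genes that are not members by transcript length; each symbol is 1 library. cKO 1 is highest in every complex and among genes of at most 800 bp (0.34), and lowest among those over 6000 bp (−0.19).

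With counts corrected for transcript length and GC content, an alternative chosen after seeing the data, the median of the 73 general subunits with a length was −0.01, with 34 above 0, beside −0.05 for all genes with 42.1% above 0. Members called were then 2 (4.38% of all genes were called higher): Cox6a2 at 2.08 ± 0.48 (edgeR adjusted p = 0.0203; 0.00638 to 0.975 over 16 alternatives) and Cox8b at 2.04 ± 0.42 (edgeR adjusted p = 0.0122; 0.00249 to 0.949). Ndufb7 fell out, at 0.17 ± 0.07 (edgeR adjusted p = 0.177; 0.00939 to 0.741).

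Scaling by total counts alone acted the other way. It raised the median of all genes from 0.02 to 0.15, with 71.3% above 0, and that of the general subunits to 0.30, with all 74 above 0. Members called higher were then 27, beside 8.61% of all genes, and all genes split into 1273 called higher and 606 lower against 706 and 912 with TMM factors. As plain shares of gene counts, the 90 members took 1.59%, 1.40% and 1.37% in cKO 1, 2 and 3 and 1.18%, 1.20% and 1.20% in WT 1, 2 and 3.

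**Figure D5:**
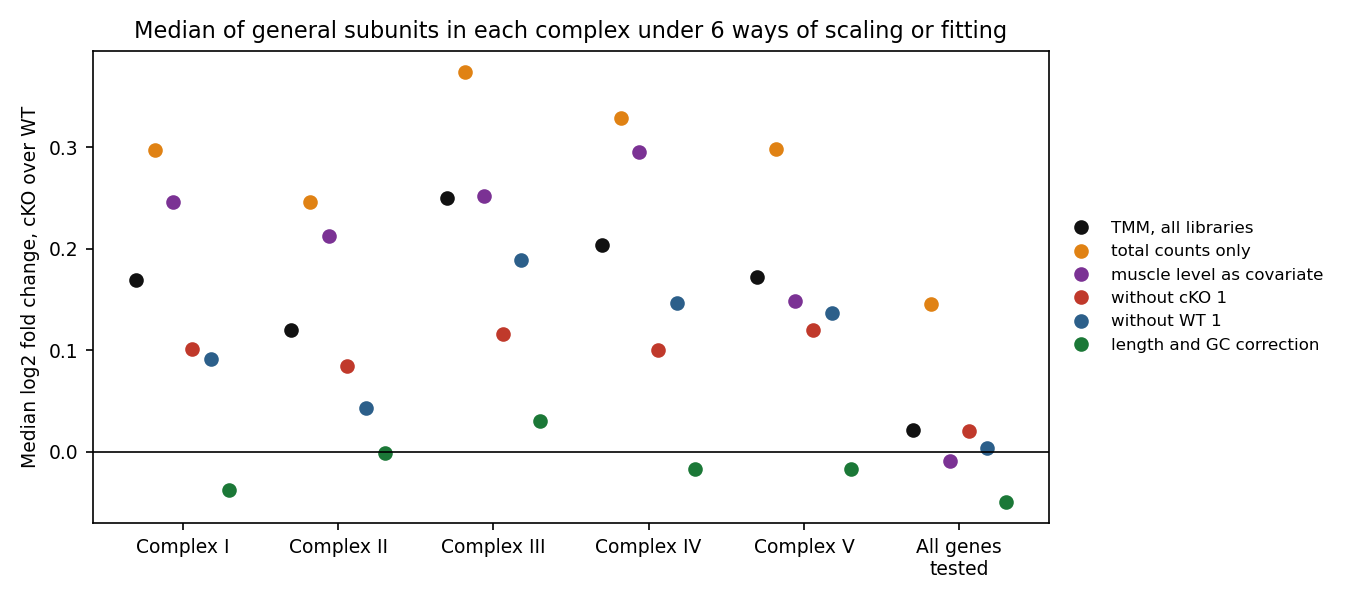
Median log2 fold change (y axis) of the general subunits of each complex and of all genes tested under 6 ways of scaling or fitting. The medians of the complexes lie above 0 in all but the length and GC correction, where they run from −0.04 in complex I to 0.03 in complex III.

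Around the complexes, edgeR called 0 to 2 genes higher and 0 lower in each other mitochondrial list. Over all genes tested 4.77% were called higher and 6.17% lower, so 1 call in a list of 15, 18 or 19 genes is near the first share. Some of these lists lay mostly above 0, as the general subunits did. Above 0 were 16 of 19 genes of the citric acid cycle, 15 of 16 of fatty acid oxidation and 68 of 77 mitochondrial ribosomal proteins (53.7% of all genes). Of the assembly factors outside the name rule 21 of 39 were above 0, and of the regulators of biogenesis 8 of 18. Of 39 assembly factors outside the name rule 0 were called in either direction by edgeR or DESeq2 (1 higher and 0 lower at an unadjusted edgeR p under 0.05), with a median log2 fold change of 0.05. Of 15 electron carriers and enzymes of ubiquinone synthesis, with Cyc1 of complex III among them, 1 was higher and 0 lower. This was Adck3, a ubiquinone synthesis gene, with 19.5, 32.6 and 22.9 CPM in cKO and 11.4, 8.98 and 11.7 CPM in WT (1.23 ± 0.20, edgeR adjusted p = 0.00597). It was highest in cKO 2, and cytochrome c (Cycs) was not called (0.25 ± 0.10, edgeR adjusted p = 0.154). Of 18 regulators of mitochondrial biogenesis 1 was higher and 0 lower: the co-activator Ppargc1a, with 10.4, 9.47 and 9.01 CPM in cKO and 6.51, 5.40 and 6.78 CPM in WT (0.63 ± 0.16, edgeR adjusted p = 0.0376). Nrf1 and Gabpa, which encode NRF-1 and a GABP subunit, had −0.02 ± 0.15 and −0.18 ± 0.10.

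Of 19 genes of the citric acid cycle 1 was higher and 0 lower, the isocitrate dehydrogenase Idh2 (0.30 ± 0.08, edgeR adjusted p = 0.0369), and the median was 0.13. Of 16 genes of fatty acid oxidation 2 were higher and 0 lower, Acadvl (0.37 ± 0.10) and Acaa2 (0.33 ± 0.09), and the median was 0.17. Of 77 mitochondrial ribosomal proteins 2 were higher and 0 lower, Mrpl4 (0.41 ± 0.10) and Mrpl42 (0.29 ± 0.08), with a median of 0.13. With the length and GC correction that median was −0.02. All cKO libraries lay above all WT libraries in 9 genes of the citric acid cycle, 6 of fatty acid oxidation and 22 ribosomal proteins. They lay below in 1, 1 and 2 (15.3% of all genes lay above and 15.8% below). Of 24 genes of import and the outer membrane 0 were called in either direction by edgeR (2 higher and 1 lower at an unadjusted p under 0.05), and DESeq2 called 1 lower. Of 10 carriers of nucleotides and energy 2 were higher and 0 lower, the muscle creatine kinases Ckm (2.57 ± 0.50) and Ckmt2 (2.63 ± 0.51). Ckm is also among the 28 skeletal muscle markers. The adenine nucleotide carrier Slc25a4 was not called (0.32 ± 0.11, edgeR adjusted p = 0.102). Of the calls named in these lists, those of Adck3, Ckm and Ckmt2 held without any 1 library (highest edgeR adjusted p 0.0455). Those of Idh2, Acaa2 and Mrpl4 held in 0 of 6 such fits (edgeR adjusted p from 0.0542 to 0.206), and those of Ppargc1a, Acadvl and Mrpl42 in 1 of 6, the one without WT 3 (0.00964 to 0.23).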

How the data were processed

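Total RNA of 6 sciatic nerve samples was sequenced from TruSeq RNA libraries, per the labels' protocols. For each sample the authors deposited a table of raw counts by gene symbol without normalization. TopHat2 2.0.13, HTSeq and the build mm10 are named in the submitters' processing notes; the sources used here do not give the annotation or the strand setting. The series' design counts 3 mice in each group, but each library holds transcripts of both sexes, so p-values measure the spread between libraries, whose sources are not known. Reads given to no gene (12.07% to 14.26%) or to several (1.635% to 2.818%, highest in cKO 1) stayed out of library sizes and tests.

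Counts were tested in edgeR 4.0.16 (R 4.3.3): filterByExpr with a minimum count of 10, TMM factors, and the quasi-likelihood F test with group as the only term over 14789 genes. Calls are at a Benjamini-Hochberg adjusted p under 0.05 over all of them. The SE was obtained as the log2 fold change over the root of its F statistic. CPM (counts scaled to library size) uses TMM factors, and log2 CPM uses a prior count of 2. CPM per kilobase uses the principal transcript of GENCODE M21 (GRCm38, the assembly of mm10), which gave a position for 89 of 90 members. In 21 members exons overlap a counted gene on the other strand. The scripts were tested on simulated data.

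Members and lists were chosen with earlier results of these data known. Members named are those called, both genes of each isoform pair, core subunits, the highest and lowest of each complex, and up to 2 genes of each other list by p; others were named after their values were seen. The values of 1 member that this rule names are not reported here; it stays in every count and median. Lists given only here: of 10 mural markers Des and Cspg4 were called higher and 0 lower (1 higher without cKO 3, 6 without WT 3). Over all genes tested 4.77% were called higher and 6.17% lower (1.83% higher without cKO 3, 7.19% without WT 3). Of 7 macrophage and T cell markers Cd3g and Ptprc were higher and 0 lower; 0 were called with the replicate block or without cKO 2, WT 1 or WT 2, 1 without cKO 3 and 3 without WT 3. By edgeR and DESeq2 0 of 6 endothelial and 0 of 6 fibroblast markers were called in either direction; by edgeR 2 and 1 were higher at an unadjusted p under 0.05, and 4 and 1 were called higher without WT 3. DESeq2 1.42.0, limma-voom (limma 3.58.1), other scaling and filters, a replicate block, the muscle covariate and leaving out each library were alternatives; the length and GC correction was chosen after seeing the data.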

Additional observations from a re-analysis of the deposited data

How the results depend on the processing

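The number of members called higher was 3 with edgeR (4.77% of all genes were) and 27 with total counts only (8.61%). DESeq2 called 6 (Ndufa8, Uqcrb and Cox7a1 added), beside 6.74% of all genes. The number was 0 with the muscle covariate (0.0338%) and 1 to 8 when 1 library was left out (1.83% to 7.19%). It stayed within 1.5 times in the other alternatives, and 0 members were lower in every alternative. The replicate block left 2 called, Cox6a2 and Cox8b (3.12% of all genes were called higher), and 1104 genes in all against 1618. Same-numbered libraries deviated from their group means with correlations of −0.363, −0.152 and 0.0846. The same-number correlation was the highest for cKO 3 but not for cKO 1 or cKO 2. With 3 libraries in each group these values cannot show whether libraries of one number share more than that number.

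Median log2 fold changes of general subunits with total counts only were 0.297, 0.246, 0.374 and 0.298 in complexes I, II, III and V, and 0.213 in complex II with the muscle covariate. With the length and GC correction they were −0.037, −0.001, 0.030, −0.017 and −0.017 in complexes I to V. With 1 library left out they ran from 0.043 to 0.137 in complex II and from 0.116 to 0.271 in complex III. The rise of the Cox8b share was 7.95 percentage points per transcript length against 5.47 in counts.

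Of all members, 38 of 89 changed sign under the length and GC correction, 12 of 90 with the muscle covariate, 8 with total counts only and 21 in at least 1 fit with a library left out (12 without cKO 1). Among the members and other genes named here, those that changed sign under the length and GC correction were Cox6a1 (−0.115), Cox8a (−0.039), Cox4i1 (−0.114), Cox6b2 (−0.188), Cox6b1 (−0.005), Cox5a (−0.039), Ndufs3 (−0.072), Ndufs8 (−0.171), Ndufv1 (−0.119), Sdhb (−0.007), Sdhd (−0.147), Uqcrfs1 (−0.059), Uqcrc2 (−0.005), Atp5b (−0.052), Atp5g2 (−0.085) and Atp5g3 (−0.069). With the muscle covariate the named genes were Cox6a2 (−0.089), Cox7a1 (−0.448), Ndufv2 (0.114), Ndufs4 (0.152), Atp5h (0.067), Ckm (−0.009), Fabp4 (−0.491), Plin1 (−1.117) and Pecam1 (−0.153). Ckm is 1 of the 28 markers averaged into that covariate, so its value near 0 was fixed in advance. Of the named genes with total counts only Ndufv2 was at 0.083, Ndufs4 at 0.001 and Atp5h at 0.125, and Atp5h was at 0.030 with upper-quartile factors and 0.008 with the filter of 50 counts. With 1 library left out, values of named genes ran across 0 for Cox6a1 (−0.025 to 0.187), Cox6b2 (−0.166 to 0.263), Ndufs8 (−0.050 to 0.133), Sdhd (−0.029 to 0.065), Uqcrc2 (−0.022 to 0.072), Atp5b (−0.017 to 0.117) and Atp5h (−0.135 to 0.072). The cause was not tested. Depth limits most the members with few counts, such as Cox4i2, Ndufs5 and Ndufaf6.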
